A study of Oryctolagus cuniculus with 2 samples.

Results

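The nuclei described here are those that the authors labelled as horizontal cells and placed in cluster 20 of their clustering of rabbit retina. Membership followed from these 2 deposited annotations alone, but the cluster was chosen with earlier results of these data known. The members numbered 69 of 6542 nuclei, 23 of 3484 in the wild-type library and 46 of 3058 in the CLRN1 knockout library. The authors gave the same label to 112 other nuclei, in clusters 19 and 24. CLRN1 encodes clarin-1, a membrane protein of hair cells and retina whose loss underlies a form of Usher syndrome. Both groups were rabbits aged 10 months, and retina was taken as a punch of 5 mm from the visual streak, the band of the rabbit retina with the highest density of neurons. Nuclei of 3 animals of each genotype were pooled into 1 library for single-nucleus RNA sequencing. Per the labels, the submitters traced nuclei back to single animals with Vireo, a tool that uses sequence variants. That assignment was not used here, so each genotype entered as 1 library, genotype, animals and library cannot be told apart in the values below, and no difference between the libraries has a replicate check or a p-value.

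Horizontal cells are inhibitory interneurons at the outer edge of the inner nuclear layer. Their dendrites enter the terminals of cones, and they send feedback to photoreceptors that sharpens contrast and adjusts the gain of the first synapse of vision. Rabbit retina has an axonless type, and an axon-bearing type whose axon terminal contacts rods.

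The wild-type library held 6916018 UMIs (unique molecular identifiers, each counted as 1 captured transcript) with a median of 1175.5 per nucleus, and the knockout library 8233524 with a median of 1552.5. Cluster 20 held 1.05% of the UMIs of the wild-type library and 2.68% of those of the knockout library. The libraries shared 5 cell barcodes, none of them of a nucleus in cluster 20. The count matrix numbers its genes and does not name them, and it was not used, so no marker gene of horizontal cells could be examined. The label was compared only with the authors' 9 module scores, and whether those scores entered into the label was not examined. A module score is a nucleus's mean log level of a list of genes less that of control genes, and its gene lists are not given in the sources used. The clusters were made from the same nuclei and genes, so all values of cluster 20 against other clusters are descriptions.

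The horizontal cell score separated cluster 20 from nearly all other nuclei. In the wild-type library it ran from −0.06 over a median of 1.62 to 2.44 (SD 0.64, n = 23 nuclei), and in the knockout library from 0.39 over 1.57 to 2.42 (SD 0.45, n = 46 nuclei). The ranges overlapped over almost their whole length. The score was the highest of the 9 in 62 of the 69 nuclei, in 19 of 23 wild-type and 43 of 46 knockout nuclei. Over both libraries, the middle part of the nuclei (lower to upper quartile) exceeded their highest other score by 0.965 to 1.70. A score of 1 or more was reached by 60 of the 69 nuclei, and by 12 of the 6473 nuclei outside the cluster.

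**Figure D1:**
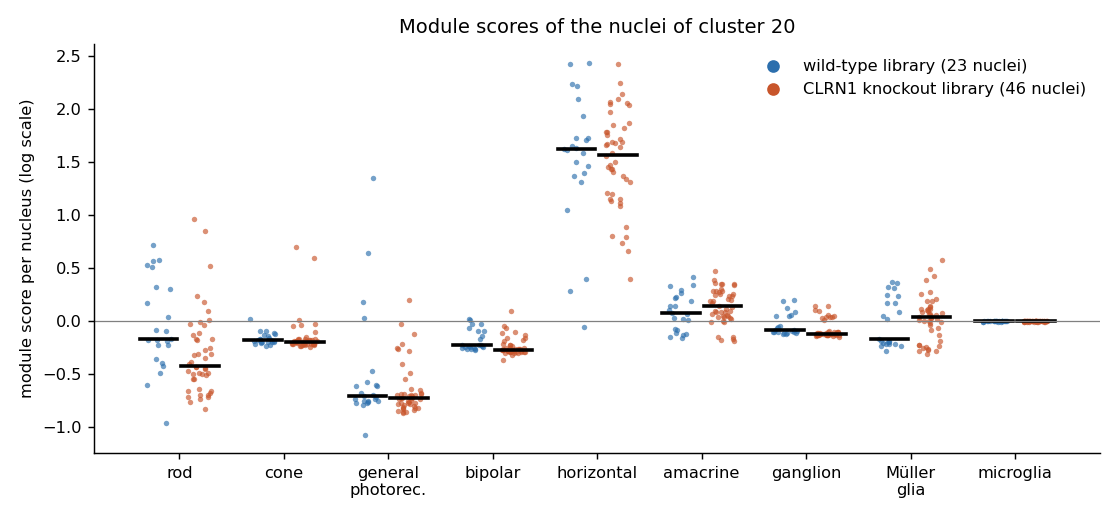
Each point is a nucleus of cluster 20, the vertical axis is the module score on its log scale, and bars are medians of the 23 wild-type and 46 knockout nuclei. The horizontal cell score stands above the other 8, with medians of 1.62 and 1.57, and the rod score has medians of −0.18 and −0.42.

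The other horizontal-labelled clusters scored far lower. The median horizontal cell score was 0.20 in cluster 19 (70 nuclei) and 0.19 in cluster 24 (42 nuclei), against 1.61 in cluster 20. Amacrine-labelled cluster 12, of 118 nuclei, had a median of 0.30 and so scored above both. The label of horizontal cell therefore covered clusters that differed in the score named for it, and clusters 19 and 24 did not exceed every amacrine cluster.

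Below 0 the score lay in a narrow band. Over all UMIs, 23.9% of wild-type and 29.0% of knockout inner retinal neurons outside cluster 20 had positive values. Between 2000 and 4000 UMIs, the score was above 0 in 10 of 10 wild-type and 12 of 12 knockout nuclei of cluster 20. In the same range of UMIs it was above 0 in 24.5% of wild-type rods (229 nuclei, exact Clopper-Pearson 95% interval 19.03% to 30.5%) and 18.5% of knockout rods (297 nuclei, 14.3% to 23.4%). Bipolar cells stood at 48.3% (60 nuclei) and 60.5% (43 nuclei), and cluster 19 at 62.5% (24 nuclei) and 82.4% (17 nuclei). A positive score alone was thus common outside cluster 20, also in rods, while the height of the score was not. Among positive nuclei of this range of UMIs, the median score was 1.60 and 1.53 in cluster 20 and 0.31 and 0.28 in rods. Over all UMIs the score was above 0 in 22 of 23 and 46 of 46 nuclei of cluster 20 and in 8.40% and 10.98% of rods, whose median depths were 869 and 1067 UMIs.

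**Figure D2:**
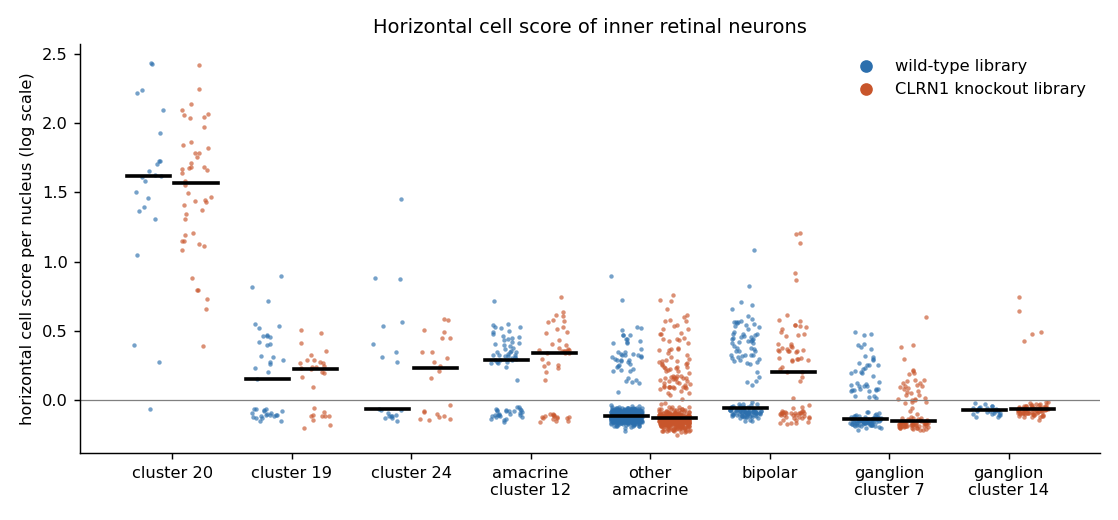
Each point is a nucleus, the vertical axis is the horizontal cell score on its log scale, and bars are medians per library. Cluster 20 lies mostly above 1, and the medians of all other groups shown are 0.34 or lower.

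Of the 12 nuclei outside the cluster with a score of 1 or more, 5 were labelled rods, 4 bipolar cells, 2 cones and 1 a horizontal cell of cluster 24. Their highest score was 1.83, in a rod-labelled nucleus with 1029 UMIs. In 10 of the 12 the horizontal cell score was also the highest of the 9. None lay within 2 units of the centre of cluster 20 in the embedding. Of all nuclei with a score of 1 or more, 83.3% were in cluster 20.

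In 7 nuclei of cluster 20 another score was the highest. In the wild-type library the Müller glia score led in 1 nucleus, with 935 UMIs and a horizontal cell score of −0.06, the only one below 0. The general photoreceptor score led in another, at 1.35 against a horizontal cell score of 1.05. The rod score led in 2 wild-type nuclei, with 1641 and 5205 UMIs and horizontal cell scores of 0.40 and 0.28. In the knockout library the rod score led in 2 nuclei, at 0.85 and 0.96, and the cone score in 1, at 0.59. Their horizontal cell scores were 0.66, 0.73 and 0.39. Photoreceptor scores led in 6 of the 7 exceptions. Of the 4 wild-type exceptions, 3 were among the 6 wild-type nuclei with fewer than 2000 UMIs, and the knockout exceptions had 2630, 3130 and 6239 UMIs. No doublet caller was run, and whether a nucleus held RNA of another cell was not tested.

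The medians of the remaining scores were 0.14 or lower in either library. The amacrine score, named for the other main class of inhibitory interneuron, had medians of 0.07 and 0.14 in the wild-type and knockout nuclei and was above 0 in 16 of 23 and 38 of 46. It was the second highest score in 32 of the 69 nuclei, more often than any other score, and the Müller glia score was second in 15. The Müller glia score had medians of −0.17 and 0.03 and was above 0 in 11 of 23 and 27 of 46 nuclei. The ganglion cell score had medians of −0.09 and −0.12 and the bipolar score of −0.23 and −0.27. The cone score had medians of −0.18 and −0.20, and the general photoreceptor score of −0.71 and −0.73. The microglia score was above 0 in 0 of 69 nuclei.

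The rod score was the one that differed most between the libraries. Wild-type nuclei ran from −0.96 over a median of −0.18 to 0.71, and knockout nuclei from −0.83 over −0.42 to 0.96. The ranges overlapped widely, while the 95% order-statistic intervals of the medians did not overlap, at −0.23 to 0.30 and −0.50 to −0.26. The difference of medians was −0.25, and within bins of UMIs (10 against 12 and 7 against 27 nuclei) it was −0.20. The direction was shared with the other inner retinal neurons. With cluster 20 counted, the median rod score was lower in the knockout library in 17 of 17 clusters, by −0.05 to −0.59. Within bins of UMIs it was lower in 14 of the 17, cluster 20 again among them. In 4 of the clusters the difference was more negative than in cluster 20.

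Depth moved with the rod score in the wild-type nuclei. The score was above 0 in 9 of 23 wild-type nuclei, among them all 6 with fewer than 2000 UMIs, and in 7 of 46 knockout nuclei, of which 0 had so few UMIs. Over the 23 wild-type nuclei the rod score had a Pearson correlation with log10 UMIs of −0.62 (Spearman −0.50), and over the 46 knockout nuclei of −0.06 (Spearman −0.12). These points share a library and any free RNA in it, which was not measured. Rod and horizontal cell scores had correlations of −0.50 (Spearman −0.40) and −0.38 (Spearman −0.25). Whether free rod RNA had a part in these values was not tested.

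The horizontal cell score itself differed by −0.05 between the medians of the libraries and by −0.12 within bins of UMIs, both smaller than the SD over nuclei of either library. The bipolar score differed by −0.04, with medians whose intervals did not overlap. Its direction turned with depth, at 0.01 among nuclei with 2000 to 4000 UMIs and −0.18 among those with 4000 to 6000, and it was −0.02 without the 10 nuclei that formed the upper part of the cluster in the embedding. The Müller glia score differed by 0.20 between the medians, knockout less wild-type, but by 0.03 between the means. The difference of medians was 0.29 among nuclei with 2000 to 4000 UMIs and −0.01 among those with 4000 to 6000. Of the 17 clusters of inner neurons, 10 had the higher median in the knockout library. The medians of the remaining 5 scores differed by at most 0.06 in either direction. Within bins of UMIs the ganglion score differed by −0.08, at −0.01 among nuclei with 2000 to 4000 UMIs and −0.17 among those with 4000 to 6000. By means the general photoreceptor score differed by −0.15.

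Cluster 20 took a larger share of the knockout library. It held 0.660% of wild-type nuclei (exact Clopper-Pearson 95% interval 0.419% to 0.989%, 23 of 3484) and 1.50% of knockout nuclei (1.10% to 2.00%, 46 of 3058), a ratio of 2.28. The intervals did not overlap, which held for 38.5% of the 26 clusters, and for 19.2% with the knockout share the higher. Intervals apart were thus frequent in these libraries, and they cover counting error only.

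The share was also larger with rods left out. With rods left out, cluster 20 made up 1.84% (1.17% to 2.75%) and 4.60% (3.39% to 6.09%) of nuclei. Among inner retinal neurons they were 2.46% (1.57% to 3.67%, of 934) and 5.60% (4.13% to 7.39%, of 822). Against amacrine cells, bipolar cells, ganglion cluster 7 and cones, each taken alone, the intervals were apart too. Ganglion cluster 14 was left out of these comparisons, and cluster 20 was not set against all ganglion-labelled nuclei together. The share of cluster 14 was itself higher in the knockout library, at 0.746% and 2.65% of all nuclei, a ratio of 3.55. Of nuclei that were either in cluster 20 or amacrine, cluster 20 made up 3.95% and 8.93%. Against bipolar cells it made up 13.9% and 36.5%, against ganglion cluster 7 15.9% and 32.6%, and against cones 11.2% and 27.2%.

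Of the horizontal-labelled nuclei alone, cluster 20 made up 27.4% (18.2% to 38.2%, 23 of 84) in the wild-type library and 47.4% (37.2% to 57.8%, 46 of 97) in the knockout library. These intervals overlapped. Cluster 19 held 1.18% and 0.948% of nuclei and cluster 24 0.574% and 0.719%, also with overlapping intervals. The difference of these ratios from that of cluster 20 was not tested.

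Depth differed between the libraries, and the share was therefore also taken over deeper nuclei. With 2000 or more UMIs the shares were 1.52% (0.891% to 2.43%, 17 nuclei) and 3.45% (2.54% to 4.58%, 46 nuclei). With 4000 or more they were 1.97% (0.794% to 4.01%, 7 nuclei) and 5.53% (3.86% to 7.64%, 34 nuclei), and the intervals overlapped. Among nuclei with under 1% mitochondrial UMIs they were 0.620% and 1.60%.

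**Figure D3:**
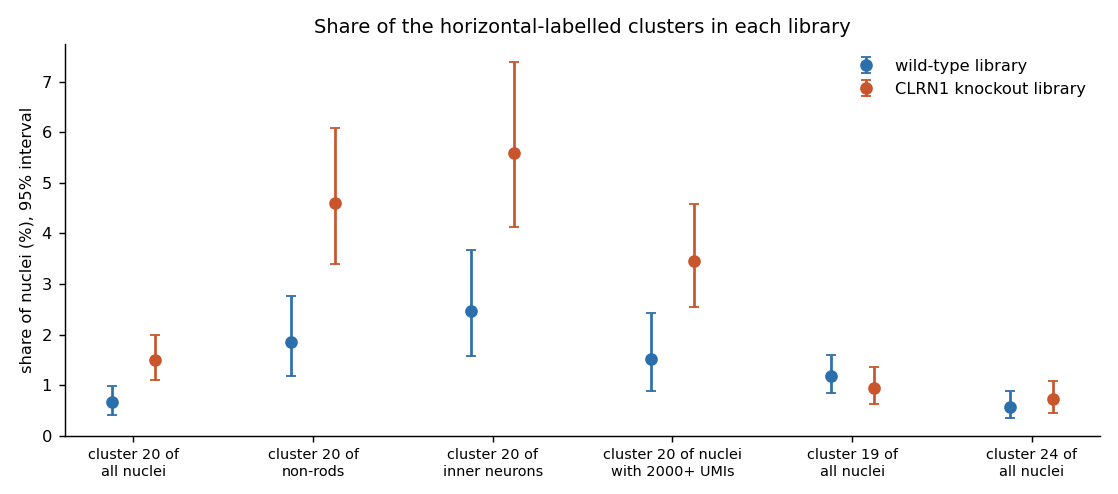
Points are shares of nuclei in percent with exact 95% intervals, per library. Cluster 20 is higher in the knockout library over all 4 sets of nuclei shown, at 1.50% against 0.660% of all nuclei, while the intervals of clusters 19 and 24 overlap.

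Nuclei of cluster 20 were deep for these libraries and deeper in the knockout library. Wild-type nuclei held from 935 over a median of 3210 (95% interval 2210 to 4052) to 5205 UMIs, and knockout nuclei from 2394 over 4546.5 (4186 to 4897) to 10947. The highest wild-type value was exceeded by 12 of 46 knockout nuclei, and 6 of 23 wild-type nuclei lay under 2000 UMIs. The median was 1.42-fold higher in the knockout nuclei. All 17 clusters of inner retinal neurons had the higher median in the knockout library, by 1.14 to 1.52-fold, and the ratio was larger than that of cluster 20 in 3 of them.

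Cluster 20 yielded fewer genes than other inner retinal neurons of the same depth. Wild-type nuclei had from 486 over a median of 1458 to 2278 genes detected, and knockout nuclei from 1216 over 1847.5 to 2869. Each nucleus was set against the 5 other inner retinal neurons of its library nearest in UMIs. It had a median of 8.18% fewer genes in the wild-type library, where 22 of 23 nuclei were lower, and 12.2% fewer in the knockout library, where 42 of 46 were lower. The log2 ratios of medians, averaged over 13 and 14 narrow bins of UMIs, corresponded to ratios of 0.910 and 0.893. Only those of the 911 and 776 comparison nuclei that lay in these bins entered.

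The smaller number of genes was seen against each class separately. Against amacrine cells the nearest nuclei gave 8.89% and 11.9% fewer genes, and against bipolar cells 10.2% and 10.3%. Against ganglion cluster 7 they gave 7.46% and 11.97%, with 15 and 38 nuclei matched. Against the other horizontal-labelled nuclei of cluster 19 they gave 7.43% (15 nuclei, 15 of them lower) and 10.3% (37 nuclei, 34 lower). Against cluster 24 only 6 and 9 nuclei could be matched, with 7.09% and 8.67% fewer genes. On 1 line of log10 genes on log10 UMIs through all inner retinal neurons, cluster 20 had the second lowest median of 17 clusters, −0.13 on the log2 scale. Only ganglion cluster 14 lay lower, at −0.27, and its median depth was 704 UMIs against 4267.

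Genes per UMI fell with depth within cluster 20, with a Pearson correlation with log10 UMIs of −0.84 (Spearman −0.85) over 23 wild-type and −0.90 (Spearman −0.85) over 46 knockout nuclei, where UMIs enter both measures. The medians were 0.454 and 0.402. Between 2000 and 4000 UMIs they were 0.457 and 0.456, and between 4000 and 6000 UMIs 0.396 and 0.401. At like depth the medians of the libraries thus differed by 0.00517 or less. The other inner retinal neurons had 0.517 and 0.524 in the lower of these ranges and 0.431 and 0.4497 in the higher.

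**Figure D4:**
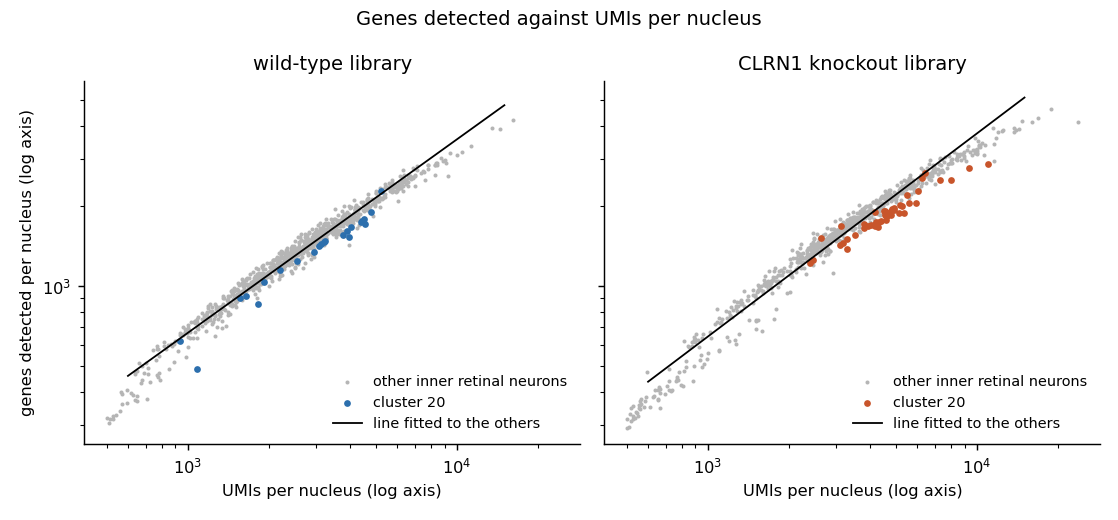
Each point is an inner retinal neuron, with UMIs on the horizontal and genes detected on the vertical axis, both on log scales, and the line was fitted to the nuclei outside cluster 20. In cluster 20, 22 of 23 wild-type and 44 of 46 knockout nuclei lie below the line.

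Mitochondrial transcripts were few, as is usual for isolated nuclei. Their share of UMIs ran from 0% over a median of 0.110% to 2.17% in wild-type nuclei and from 0% over 0.187% to 2.28% in knockout nuclei. The ranges were nearly the same, with 3 of 23 and 1 of 46 nuclei above 1% and 3 and 5 nuclei with no mitochondrial UMI. Against other inner retinal neurons of like depth the direction differed between methods. The 5 nearest nuclei gave median differences of −0.05 and −0.09 percentage points, and averages over narrow bins of UMIs 0.20 and 0.01. Such a bin could hold a single nucleus of cluster 20. The cluster was higher in 6 of 13 wild-type and 8 of 14 knockout bins.

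In the authors' embedding, a map that places nuclei with similar expression near each other and whose units are arbitrary, cluster 20 formed a compact island. It was centred at −8.99 and −7.13 and measured 0.428 by 0.769 units, where all nuclei spanned 37.2 by 32.7. The farthest of the 69 nuclei lay 0.490 units from the centre. The nearest nucleus outside the cluster lay 2.04 units from the closest nucleus of the cluster. All of the 10 nearest neighbours of every nucleus were in cluster 20, and likewise for 5 and 30 neighbours.

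The nearest cluster was horizontal-labelled cluster 24, with centres 2.37 units apart, followed by amacrine cluster 13 at 3.12 units. Cluster 19, also labelled horizontal, was 8.78 units away, farther than several amacrine, rod and bipolar clusters. Distances on such a map are not a measure of likeness.

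Within the island the libraries were partly separated. Of the 10 nearest neighbours, 62.2% were wild-type around wild-type nuclei and 16.5% around knockout nuclei, where the numbers of nuclei alone would give 32.4% and 33.8%. The distance between the library medians was 1.53 times the median radius of the cluster. This ratio ran from 0.0635 to 2.91 over the 17 clusters of inner retinal neurons and was larger in 3 of them. No source used here states whether the authors integrated the libraries.

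Joining nuclei up to 0.1 units apart divided the island into a main part of 58 nuclei (16 wild-type, 42 knockout), an upper part of 10 (6 wild-type, 4 knockout) and a single wild-type nucleus. At 0.15 units the main and upper parts merged into 68 nuclei, so the division rests on the joining distance. The single nucleus was the rod-led one with 5205 UMIs. The upper part made up 26.1% of wild-type nuclei (10.2% to 48.4%) and 8.70% of knockout nuclei (2.42% to 20.8%), with overlapping intervals.

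The upper part had the higher horizontal cell scores, with medians of 2.15 in 6 wild-type and 2.05 in 4 knockout nuclei against 1.59 and 1.48 in the main part. Its lowest score was 1.50. In the wild-type library it also held the nuclei with many mitochondrial UMIs: 5 of its 6 nuclei had over 0.5%, against 0 of the 17 other nuclei. In the knockout library this was 1 of 4 against 6 of 42. The part was chosen on the map after its values were seen, and the map was made from the same expression values as the scores.

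**Figure D5:**
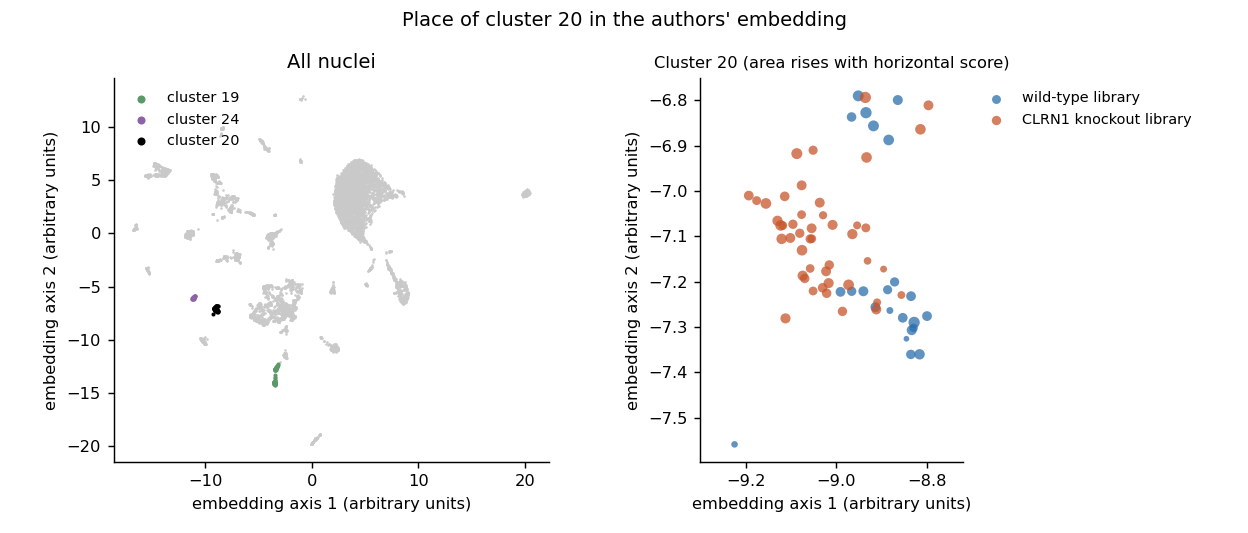
The left panel shows all 6542 nuclei in the authors' embedding (axes in arbitrary units) and the right panel the 69 nuclei of cluster 20, coloured by library, with larger points for higher horizontal cell scores. The upper part of 10 nuclei and the single wild-type nucleus lie apart from the 58 others.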

How the data were processed

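Per the labels, nuclei of 3 rabbits per genotype were pooled into 1 droplet library with 3' chemistry. Genome build OryCun2.0, DESeq2 1.38.0, Seurat 4.3.0 and Cell Ranger 7.0 are listed per the submitters' processing notes, without roles. No source used here states the filters on nuclei or the handling of doublets and free RNA. The authors deposited, per nucleus, raw UMI counts and numbers of genes, the percent of mitochondrial UMIs, 9 module scores, cluster, cell type and embedding coordinates. The lowest UMI count of a nucleus was 499. The deposited count matrix carries numbers in place of names and was not used, so by the rule for naming genes none was named.

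Nuclei were assigned to libraries by the authors' library name. Shares have exact Clopper-Pearson intervals and medians have order-statistic intervals, at 95%. The intervals of shares cover counting error only, and those of medians cover only the sampling of nuclei within a library. Nuclei are not replicates, and no test was made. Inner retinal neurons are the bipolar, amacrine, horizontal and ganglion labels. Libraries were compared within bins divided at 1000, 2000, 4000 and 6000 UMIs, with at least 5 nuclei of each library. Cluster 20 was compared with other neurons in bins of 0.05 log10 UMIs and with the 5 nearest nuclei within 0.1 log10 UMIs. A narrow bin needed a single nucleus of cluster 20 and 5 others, and bins were averaged with their nuclei of cluster 20 as weights. The wide bins had been used first for this comparison too. They missed known answers on simulated data, and the narrow width and the limit of 0.1 were set after values in the wide bins had been seen. The narrow width was kept because it returned the known answers of the same simulated data, so that result is no separate check of the methods. Members, groups and measures were chosen with earlier results of these data known. Computations used SciPy 1.17.1, numpy 2.4.6, pandas 2.3.3 and, for figures, matplotlib 3.10.9, under Python 3.11.15.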

Additional observations from a re-analysis of the deposited data

Results flagged for a closer look

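The ratios of the shares of nuclei in the libraries had opposite signs in 2 horizontal-labelled clusters, but only in cluster 20 did the intervals of the shares not overlap. The log2 ratio of the knockout to the wild-type share was 1.19 in cluster 20 (approximate 95% interval 0.47 to 1.91) and −0.31 in cluster 19 (−0.99 to 0.37, which includes 0). In cluster 24, labelled likewise, it was 0.33 (−0.55 to 1.20), also with overlapping intervals. With 1 library per genotype the difference was not tested.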

How the results depend on the processing

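Of 58 alternative values, 52 stayed within the spread of the value reported. For every score difference but that of Müller glia, the spread exceeded the value itself, so a change of sign could stay within it. The amacrine difference, 0.06 by medians with a spread of 0.17, was −0.002 within bins of UMIs and was counted as within. So was the knockout mitochondrial difference, 0.01 points in narrow bins and −0.09 with nearest nuclei. The cone score difference between libraries, −0.02 by medians, was 0.0181 by means. The general photoreceptor difference, −0.02 by medians, was −0.15 by means and −0.12 without the upper part of cluster 20. The Müller glia difference was 0.20 by medians and 0.03 by means. The wide bins of UMIs first used for matching gave −0.062 for the log2 ratio of genes in the wild-type library, against −0.14 in narrow bins, −0.12 with nearest nuclei and −0.12 from the line. The wild-type mitochondrial difference was 0.20 points in narrow bins, 0.00538 in wide bins and −0.0542 with nearest nuclei. These methods differ both in the matching and in how nuclei are averaged, and the direction was not the same in all. The log2 ratio of shares lay between 1.04 and 1.49 under 7 alternatives, and it was 1.49 without the upper part. Alternatives with 4000 or more UMIs, without the upper part, without cluster 14, with wide bins, and of UMIs over nuclei with 2000 or more were chosen after seeing the data. The last gave a log2 ratio of UMIs of 0.22 against 0.50 over all nuclei. Depth limits the wild-type values, which rest on 23 nuclei. No paired analysis was possible because each genotype was 1 library.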
